A study of Mus musculus with 24 samples.

Results

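A set of 10 genes of transforming growth factor beta (TGF-beta) and bone morphogenetic protein (BMP) signalling was followed in mouse brain microvessels after stroke, out of the 17270 genes with deposited values. They were chosen by gene symbol and comprised the ligands Tgfb1 and Tgfb2, the receptors Tgfbr1, Tgfbr2 and Acvrl1, the co-receptor Eng, the inhibitory Smads Smad6 and Smad7, and the target genes Id1 and Id3. All 10 were found, and all 10 passed the filter on low values. Male C57BL/6J mice of 10 to 12 weeks had undergone transient middle cerebral artery occlusion (tMCAO, stroke) of 60 min or sham surgery, in which the filament was withdrawn at once. Microvessels were isolated 24 h or 7 days later from the ipsilateral and the contralateral hemisphere. This gave 8 groups of 3 libraries, 24 libraries in all. Each library was a pool of 3 hemispheres, so that infarcted, bordering and intact tissue were mixed in the ipsilateral vessels. The methods of the study state that samples judged to be outliers were set aside and that 3 per group were analysed.

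TGF-beta ligands are secreted in a latent form and, once released, bind the type II receptor Tgfbr2, which recruits the type I receptor Tgfbr1 and activates Smad2 and Smad3. Endothelial cells carry a further type I receptor, Acvrl1, which acts with the co-receptor endoglin (Eng), responds mainly to circulating BMP ligands and activates Smad1, Smad5 and Smad9. Id1 and Id3 are classical targets of that branch, and Smad6 and Smad7 are induced by the pathway and dampen it. Loss of ENG or ACVRL1 function causes hereditary haemorrhagic telangiectasia, a disease of vascular malformations.

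The values are normalized counts, that is reads per gene divided by a size factor of the library and rounded. The totals ran from 15924780 to 18787932 per library. All 12 endothelial markers were present in every library, and their summed level was between 334548 and 525275 in the ipsilateral libraries. The 8 mural markers summed to 62620 to 133559 and the 6 astrocyte markers to 4980 to 26319 in the same libraries, so other cell types were present beside endothelium. Markers at 0 in any library were those of T cells (Cd3e, Cd3d, Cd3g and Cd8a) and the cell cycle gene Ccnb1. In whole vessel preparations, fewer cells of a type and less RNA per cell cannot be told apart. A contralateral stroke library of 7 days stood apart, with an astrocyte marker sum of 38601. Leaving it out changed no call among the 10 genes.

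Per kilobase of exon, Id1 was the most abundant of the 10 genes, with a mean of 12303 normalized counts per kb over the 24 libraries. Id3 followed with 6724, Eng with 5993, Acvrl1 with 3670 and Tgfbr2 with 1659 normalized counts per kb. The other 5 genes were lower, from 509 per kb for Smad6 through 320.4 for Smad7, 309 for Tgfb1 and 282 for Tgfb2 to 105 for Tgfbr1. In unscaled normalized counts, Eng stood at the 99.6th percentile of all genes and Tgfbr1 at the 69.8th. The BMP receptor, the co-receptor and the target genes of the endothelial branch were thus far more abundant than both ligands and than the type I receptor Tgfbr1.

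The regions before the start sites are shown for 3 genes, the ligands whose differences at 24 h had opposite signs and the receptor that differed between time points. They are 250 bases on the gene's strand before the RefSeq start, build GRCm38.p6, at chr7:25686752-25687001 (plus strand) for Tgfb1, chr1:186705990-186706239 (minus strand) for Tgfb2 and chr9:116175364-116175613 (minus strand) for Tgfbr2. Capitals mark CAGAC, the Smad box, on either strand (GTCTG on the other).
Tgfb1: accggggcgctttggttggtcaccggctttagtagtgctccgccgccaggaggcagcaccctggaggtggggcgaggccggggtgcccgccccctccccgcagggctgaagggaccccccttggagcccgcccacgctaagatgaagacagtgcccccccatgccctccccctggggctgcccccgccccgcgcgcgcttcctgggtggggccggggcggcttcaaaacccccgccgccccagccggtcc
Tgfb2: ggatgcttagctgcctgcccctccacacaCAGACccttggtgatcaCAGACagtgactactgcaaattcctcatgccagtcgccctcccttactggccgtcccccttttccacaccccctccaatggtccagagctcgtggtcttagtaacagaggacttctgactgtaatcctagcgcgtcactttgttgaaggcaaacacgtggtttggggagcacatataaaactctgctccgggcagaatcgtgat
Tgfbr2: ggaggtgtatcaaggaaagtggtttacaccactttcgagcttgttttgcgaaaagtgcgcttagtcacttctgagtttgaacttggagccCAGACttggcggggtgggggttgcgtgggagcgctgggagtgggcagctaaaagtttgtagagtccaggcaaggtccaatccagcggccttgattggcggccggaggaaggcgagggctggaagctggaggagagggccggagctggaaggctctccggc
Tgfb2 held CAGAC 221 and 204 bases before the start and Tgfbr2 160 bases before it, whereas the Tgfb1 region had no match. CAGAC on either strand was present in 42.2% of the 32851 RefSeq regions of the same length. GGCGCC, a GC-rich element bound by BMP Smads, occurred in none of the 3 regions and in 9.59% of all regions. These matches describe letters in a window.

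At 24 h after stroke, Tgfb1 was the only one of the 10 genes regulated in ipsilateral vessels compared to sham, and it rose 1.58-fold. At 7 days none was regulated. Tgfbr2 was the only one of the 10 that differed between 24 h and 7 days in the stroke hemisphere, and it was higher at 7 days. Regulation required a limma p under 0.05 after Benjamini-Hochberg adjustment over the 15982 genes tested and a log2 fold change above 0.585 in size, which is 1.5-fold. Log2 values are of the normalized count with 1 added.

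**Figure D1:**
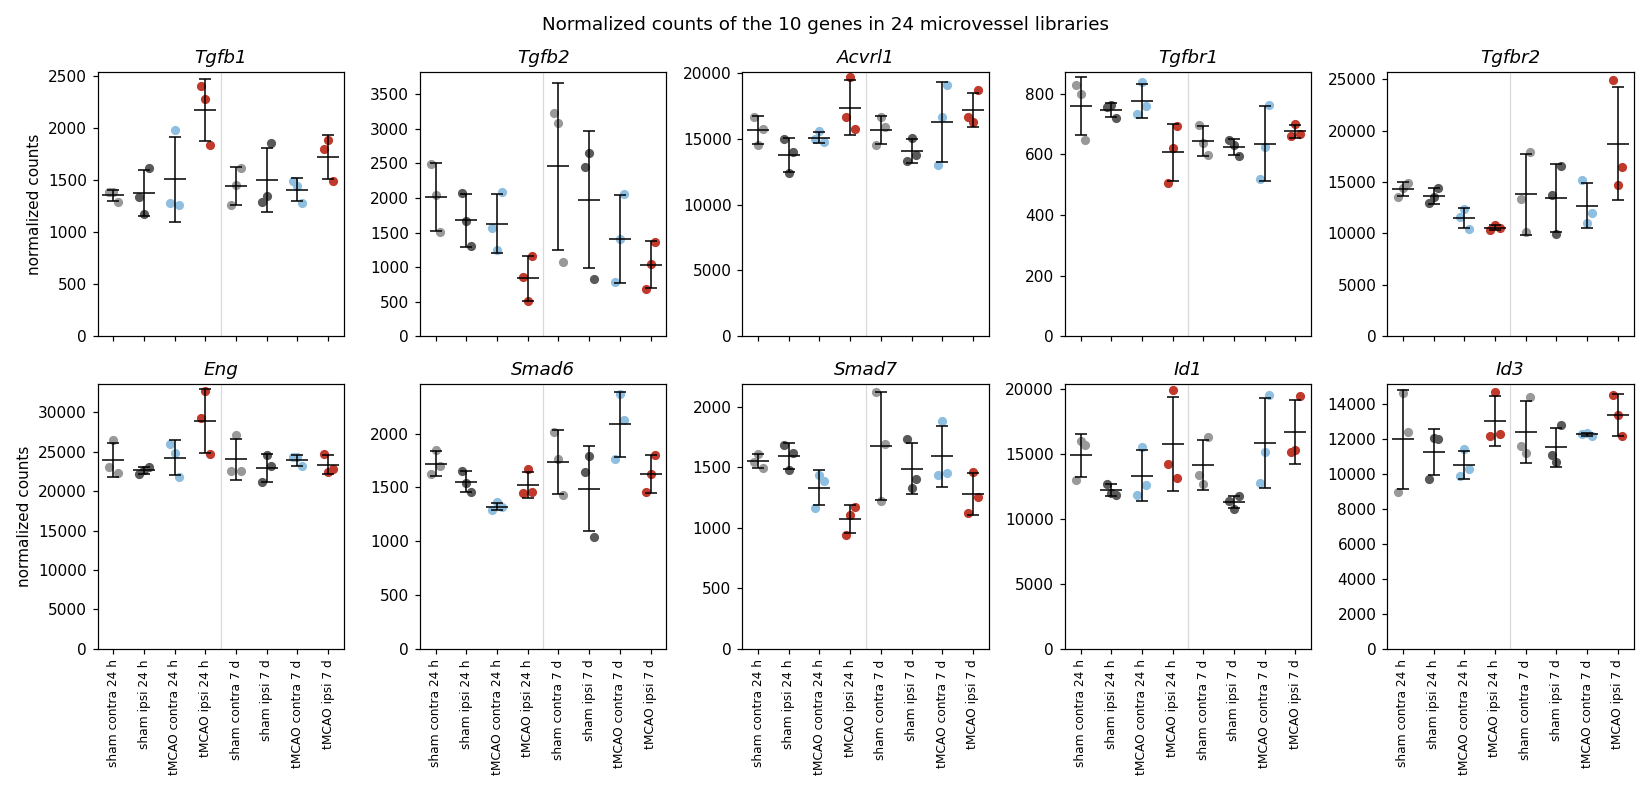
Normalized counts (vertical axes, linear, from 0) of the 10 genes in all 24 libraries, with points for libraries and bars for the mean and SD of the 3 libraries of each group. For Tgfb1 the 3 ipsilateral stroke libraries of 24 h lie between 1833 and 2396, above the sham libraries of 1174 to 1610, and for Tgfbr2 the highest library is a stroke library of 7 days at 24973.

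Tgfb1 (ENSMUSG00000002603, mm10 chr7:25687002-25705077, plus strand) encodes the TGF-beta1 ligand. At 24 h the ipsilateral libraries held 1332, 1174 and 1610 normalized counts after sham surgery and 2396, 2280 and 1833 after stroke. All 3 stroke libraries were above all 3 sham libraries. The means were 1372 ± 221 and 2170 ± 297 (SD, n = 3), a log2 fold change of 0.66 (SE 0.17, adjusted p = 0.00663 in limma). Without sham library 2, the difference was 0.56 with a limma adjusted p = 0.0372 and fell below the fold limit. At 7 days the ipsilateral libraries held 1289, 1347 and 1851 after sham surgery and 1798, 1881 and 1485 after stroke. These overlapped, with a log2 difference of 0.21 (SE 0.17, limma adjusted p = 0.445). The difference between the effects at 7 days and 24 h was -0.45 (SE 0.24, limma adjusted p = 0.244), so a loss of the effect by 7 days was not shown with the deposited scaling. With the libraries scaled to the endothelial markers it was -0.71 and called (limma adjusted p = 0.0358), and Tgfb1 was then lower at 7 days than at 24 h in the stroke hemisphere (-0.68, limma adjusted p = 0.00269).

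Markers of neutrophils and monocytes moved with Tgfb1 at 24 h. All 6 were higher after stroke, and their sum was 311 to 1129 in the sham and 2997 to 5721 in the stroke libraries. Of 8 markers of microglia and macrophages 3 were higher, with sums of 3232 to 6195 and 3936 to 7195. The endothelial markers summed to 377547 to 478061 in sham and 334548 to 388250 in stroke libraries, with 2 of 12 lower. The part of these cells in the Tgfb1 increase was not tested.

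Tgfb2 (ENSMUSG00000039239, mm10 chr1:186622792-186705989, minus strand) encodes the TGF-beta2 ligand and had the largest standard error of the 10 genes. At 24 h, sham ipsilateral libraries held 2066, 1667 and 1303 normalized counts and stroke libraries 850, 506 and 1161. Every stroke library was below every sham library, with means of 1679 ± 382 and 839 ± 328 (SD, n = 3). The log2 difference of -1.05 (SE 0.46) did not pass the test, with a limma adjusted p = 0.0900. At 7 days the sham libraries held 2448, 2652 and 832 and the stroke libraries 688, 1048 and 1367. The third sham library lay among the stroke libraries, and the log2 difference was -0.82 (SE 0.46, limma adjusted p = 0.257).

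Within pools of mice, Tgfb2 was steadier than between them. Same-numbered ipsilateral and contralateral libraries were taken as the same pool. At 24 h after stroke the contralateral libraries held 1565, 1240 and 2079 normalized counts, and the ipsilateral minus contralateral log2 differences of the 3 pools were -0.88, -1.29 and -0.84. Every ipsilateral library was below every contralateral one. The difference of -1.0 (SE 0.46) had a limma adjusted p = 0.121 without and 7.68e-06 with the pool as a block, and with the block Tgfb2 fell. At 7 days the pools differed by -0.18, -0.43 and -0.58. In sham mice the 6 pools ranged from -0.21 to -0.40, so that Tgfb2 was lower ipsilaterally in all 12 pools.

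Neuron and astrocyte markers were lower beside Tgfb2 at 24 h after stroke. The 6 neuron markers summed to 4070 to 4295 in sham ipsilateral and 1491 to 2032 in stroke ipsilateral libraries of 24 h, with 4 of 6 lower. The 6 astrocyte markers summed to 14570 to 18929 in sham ipsilateral and 8043 to 11574 in stroke ipsilateral libraries of 24 h, with 4 of 6 lower, and to 11607 to 17025 in the contralateral stroke libraries. Of 6 choroid plexus markers none was regulated at 24 h, and their sums of 5120 to 74202 in sham and 7889 to 20649 in stroke libraries overlapped. The 8 mural markers summed to 115206 to 124048 in sham and 62620 to 110341 in stroke ipsilateral libraries of 24 h, with 1 of 8 lower. Between sham hemispheres, where Tgfb2 was lower ipsilaterally, neuron and astrocyte markers had higher mean sums ipsilaterally at both time points, with none regulated. At 24 h these means were 4207 against 3228 for neuron and 16445 against 12243 for astrocyte markers. Mural and endothelial markers had lower mean sums ipsilaterally in sham mice at both time points, again with none regulated. For mural markers these were 121032 against 142759 at 24 h and 129669 against 136278 at 7 days. For endothelial markers they were 429007 against 453241 and 412031 against 439864. The part of these cell types in the Tgfb2 difference was not tested. Tgfb2 shares 2.14% of its exon length with the antisense gene Gm29491, and whether strand was used in counting is not given in the sources used here. The same limit holds for Acvrl1, which shares 2.98% with the antisense gene Gm16031. It also holds for Eng, which shares 1.51% with the protein-coding gene Fpgs on the other strand.

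**Figure D2:**
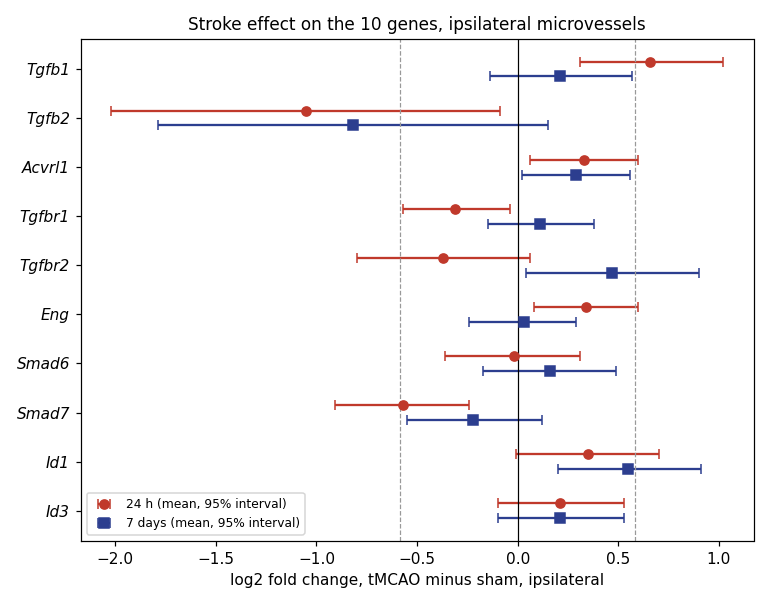
Log2 fold change of tMCAO against sham ipsilateral vessels at 24 h (circles) and 7 days (squares) with 95% confidence intervals, 3 libraries a group, and dashed lines at the fold limit of 0.585. At 24 h Tgfb1 is at 0.66 and Tgfb2 at -1.05, and at 7 days Id1 is at 0.55.

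The type II receptor gene Tgfbr2 (ENSMUSG00000032440, mm10 chr9:116084293-116175360, minus strand) held 12926, 13544 and 14439 normalized counts in sham ipsilateral libraries of 24 h and 10316, 10791 and 10536 in stroke libraries. The stroke libraries were all lower and close together. The log2 difference was -0.37 (SE 0.21, limma adjusted p = 0.177). At 7 days sham libraries held 13752, 9995 and 16551 and stroke libraries 24973, 14744 and 16508. Stroke library 1 was above all others, while the other two lay within the sham range, and the difference was 0.47 (SE 0.21, limma adjusted p = 0.128).

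Between time points in the stroke hemisphere, Tgfbr2 was higher at 7 days than at 24 h in every library, with means of 18742 ± 5468 and 10548 ± 238 (SD, n = 3). The log2 fold change was 0.79 (SE 0.21, limma adjusted p = 0.0110). Without stroke library 1 of 7 days it was 0.56 and no longer called, with a limma adjusted p = 0.0628. It was also lost with the libraries scaled to the endothelial markers, where it was 0.45 (limma adjusted p = 0.0826). The test of the 7-day stroke effect against the 24-h stroke effect, which takes the sham libraries into account, gave 0.84 (SE 0.29, limma adjusted p = 0.0689). It did not pass over all genes. Endothelial marker sums were 334548 to 388250 at 24 h and 413667 to 525275 at 7 days in these libraries, and their part in the Tgfbr2 difference was not tested. In the same 3 pools at 7 days, Tgfbr2 was higher ipsilaterally by 0.72, 0.42 and 0.46, a difference of 0.53 (SE 0.21, limma adjusted p = 0.0865). Without ipsilateral library 2 this difference was 0.69 and called, with a limma adjusted p = 0.0419. The 0.53 of the main fit was below the fold limit. Over the alternatives, the limma adjusted p of this difference ran from 0.000352 to 0.43.

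The type I receptor gene Tgfbr1 (ENSMUSG00000007613, mm10 chr4:47353222-47414931, plus strand) was the least abundant of the 10. Sham ipsilateral libraries of 24 h held 755, 762 and 719 normalized counts and stroke libraries 506, 621 and 692. The stroke libraries were lower without overlap, by -0.31 on the log2 scale (SE 0.13, limma adjusted p = 0.0714). Against their own contralateral libraries, with 732, 840 and 759, the difference was -0.37 (SE 0.13, limma adjusted p = 0.0410), which is below the fold limit. At 7 days the difference from sham was 0.11 (limma adjusted p = 0.610), although libraries of 660 to 701 after stroke and 594 to 649 after sham surgery did not overlap.

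Acvrl1 (ENSMUSG00000000530, mm10 chr15:101128522-101145336, plus strand) encodes the endothelial type I receptor of the BMP branch. At 24 h, sham ipsilateral libraries held 14977, 12391 and 13976 normalized counts and stroke libraries 16685, 19734 and 15744. At 7 days they held 13295, 15096 and 13809 after sham surgery and 16649, 16319 and 18689 after stroke. Stroke libraries were above sham libraries at both time points, yet neither difference passed the test. They were 0.33 (SE 0.13, limma adjusted p = 0.0582) and 0.29 (SE 0.13, limma adjusted p = 0.140). In sham mice Acvrl1 was lower ipsilaterally in all 6 pools, by -0.13 to -0.23, and no gene passed that test.

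Eng (ENSMUSG00000026814, mm10 chr2:32646595-32682669, plus strand), the co-receptor of Acvrl1, held 22213, 22706 and 23097 normalized counts in sham ipsilateral libraries of 24 h and 29328, 32739 and 24664 in stroke libraries. All stroke libraries were higher, by 0.34 on the log2 scale (SE 0.13, limma adjusted p = 0.0457). This passed the p threshold but not the fold limit. At 7 days the stroke libraries held 24752, 22477 and 22846 and overlapped the sham libraries of 21126 to 24589, with a difference of 0.03 (limma adjusted p = 0.920). From 24 h to 7 days after stroke the log2 difference was -0.30 (SE 0.13, limma adjusted p = 0.102). Scaled to the endothelial markers it was -0.65 (limma adjusted p = 0.000707), past both limits.

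Smad7 (ENSMUSG00000025880, mm10 chr18:75367529-75395935, plus strand) encodes an inhibitory Smad that blocks both branches. Sham ipsilateral libraries of 24 h held 1685, 1479 and 1618 normalized counts and stroke libraries 944, 1102 and 1176. The stroke libraries were lower without overlap, by -0.57 (SE 0.16, limma adjusted p = 0.0118), just inside the fold limit. The call was made without sham library 2 (-0.63), stroke library 2 (-0.59) or stroke library 3 (-0.64). At 7 days, libraries of 1120, 1465 and 1257 after stroke and 1731, 1332 and 1403 after sham surgery overlapped, with a difference of -0.22 (limma adjusted p = 0.411). Within pools, Smad7 was lower ipsilaterally in all 6 stroke pools, by -0.21 to -0.38.

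Smad6 (ENSMUSG00000036867, mm10 chr9:63953076-64022059, minus strand) encodes the inhibitory Smad that acts mainly on the BMP branch. Sham ipsilateral libraries of 24 h held 1655, 1537 and 1461 normalized counts and stroke libraries 1452, 1667 and 1458, and they overlapped. The difference was -0.02 (SE 0.16, limma adjusted p = 0.921), with a 95% interval of -0.36 to 0.31. At 7 days it was 0.16 (limma adjusted p = 0.565). A larger Smad6 difference was seen on the contralateral side. Contralateral stroke libraries held 1289, 1362 and 1317 at 24 h and 1765, 2367 and 2130 at 7 days, without overlap. The difference of 0.65 (SE 0.16) had a limma adjusted p = 0.123.

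Id1 (ENSMUSG00000042745, mm10 chr2:152736251-152737410, plus strand), a target gene of the BMP branch that inhibits bHLH transcription factors, held 12725, 11983 and 11875 normalized counts in sham ipsilateral libraries of 24 h and 14202, 19911 and 13173 in stroke libraries. At 7 days the values were 11387, 10802 and 11754 after sham surgery and 15168, 15344 and 19512 after stroke. All stroke libraries were above all sham libraries at both time points. The log2 difference was 0.35 at 24 h (SE 0.17, limma adjusted p = 0.128) and 0.55 at 7 days (SE 0.17, limma adjusted p = 0.0299), the latter just under the fold limit. It was called at 7 days without stroke library 1 or stroke library 2 (0.61 in each case, limma adjusted p = 0.0463 and 0.0393). In sham mice Id1 was lower ipsilaterally in all 6 pools, by -0.03 to -0.47, and no gene passed the test between sham hemispheres at either time point. The part of this sham difference in the Id1 stroke comparison was not tested.

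Id3 (ENSMUSG00000007872, mm10 chr4:136143497-136145392, plus strand), a second target gene of the same family, held 9734, 12042 and 12010 normalized counts in sham ipsilateral libraries of 24 h and 12171, 14683 and 12265 in stroke libraries. These were separate by a narrow margin. The 7-day values were 11079, 10679 and 12787 after sham surgery and 14528, 13393 and 12155 after stroke, and they overlapped. The difference was 0.21 at both time points, with limma adjusted p-values of 0.296 at 24 h and 0.378 at 7 days.

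Counted together, 1 of the 10 genes was regulated at 24 h, beside 18.3% of all genes tested, and 0 of 10 at 7 days, beside 13.2%. Unadjusted limma p-values under 0.05 were found for 6 of the 10 genes at 24 h, beside 42.1% of all genes, and for 3 of 10 at 7 days, beside 29.3%. The libraries of stroke and sham did not overlap for 9 of 10 genes at 24 h (49.0% of all genes) and for 3 of 10 at 7 days (30.0%). The exception at 24 h was Smad6. The median log2 difference of the 10 was 0.09 at 24 h and 0.19 at 7 days, against -0.024 and 0.025 for all genes.

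Between hemispheres of stroke mice, 0 of 10 were regulated at either time point, beside 13.6% of all genes at 24 h and 13.0% at 7 days. Unadjusted limma p-values were under 0.05 for 3 of 10 at 24 h, beside 37.2% of all genes, and for 2 of 10 at 7 days, beside 26.9%. With the pool as a block, 1 of 10 was regulated at 24 h, Tgfb2. The hemispheres did not overlap for 5 of 10 at 24 h (40.8% of all genes) and for 0 of 10 at 7 days (25.3%). Tgfb1 at 24 h was higher ipsilaterally by 0.55 (SE 0.17, limma adjusted p = 0.0227), just under the fold limit. It was called without contralateral library 2 (0.76) or ipsilateral library 3 (0.67). Between 24 h and 7 days after stroke, 1 of 10 was regulated (12.2% of all genes) and 1 of 10 did not overlap (34.2%), Tgfbr2 in each case. For the difference between the 2 stroke effects it was 0 of 10, beside 8.12% of all genes, with 2 unadjusted limma p-values under 0.05, those of Tgfbr2 and Tgfbr1, while 26.0% of all genes were under this value.

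Among the control groups none of the 10 genes was regulated. The share of all genes regulated was 0% between the hemispheres of sham mice at 24 h, 0% at 7 days, 0% between stroke and sham contralateral vessels at 24 h and 0.0313% at 7 days. Between time points it was 0.476% in sham ipsilateral, 0.332% in sham contralateral and 0% in stroke contralateral vessels. Unadjusted limma p-values under 0.05 occurred for Smad6 between stroke and sham contralateral vessels at 24 h (log2 difference -0.38), beside 2.53% of all genes. Between time points in stroke contralateral vessels they occurred for Smad6 and Tgfbr1, beside 16.5% of all genes. Libraries did not overlap for 3 of 10 in each of these comparisons, beside 1310 and 2557 of the 15982 genes. In the other control comparisons it was 0 to 2 of 10, beside 1118 to 3519 genes.

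The order of the 8 groups showed few clear steps between neighbours. Along each gene's own order of group means, neighbouring groups overlapped in their libraries except for Tgfbr1, with sham ipsilateral vessels of 24 h above ipsilateral stroke vessels of 7 days, and Id1, with sham ipsilateral vessels of 24 h above those of 7 days. Across the 8 group means, Acvrl1 and Id1 ran in parallel (r = 0.93), as did Tgfb2 and Smad7 (r = 0.85) and Tgfb1 and Eng (r = 0.83). Tgfb1 ran opposite to Smad7 (r = -0.93) and Tgfb2 (r = -0.86). These are descriptions over 8 points that share the scaling of the libraries.

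Among 12149 other genes, the closest group pattern to Tgfb1 was that of Tnxb (r = 0.994 over the 8 group means), followed by Ccdc130 and Abi3 (0.993 each). For Tgfb2 it was Cobll1 (0.989), for Tgfbr1 Zcchc11 (0.982), for Acvrl1 Hyal2 (0.980) and for Tgfbr2 Poll (0.960). For Eng it was Ewsr1 (0.990), for Smad6 Ap2a1 (0.919), for Id1 Prkag1 (0.954) and for Id3 Ebpl (0.977). The closest to Smad7 was Smad9 (0.979), a receptor-activated Smad of the BMP branch.

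Of 58 further genes of the pathway reported here, drawn up by role, 56 were tested, and Gdf2 and Fst were not analysed here. At 24 h after stroke 8 were higher and 9 lower than in sham ipsilateral vessels, 30.4% of the 56, beside 10.0% of all genes on the higher and 8.23% on the lower side. At 7 days 12 were lower, 21.4% of the 56, and no other of them was regulated, while 3.27% of all genes were higher and 9.95% lower. The median log2 difference of the 56 genes was -0.20 at 24 h and -0.14 at 7 days. Of the 17 calls at 24 h, 7 were kept in each of 6 fits without 1 library and 10 were lost in at least 1. Of the 12 calls at 7 days, 6 were kept and 6 were lost in at least 1.

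**Figure D3:**
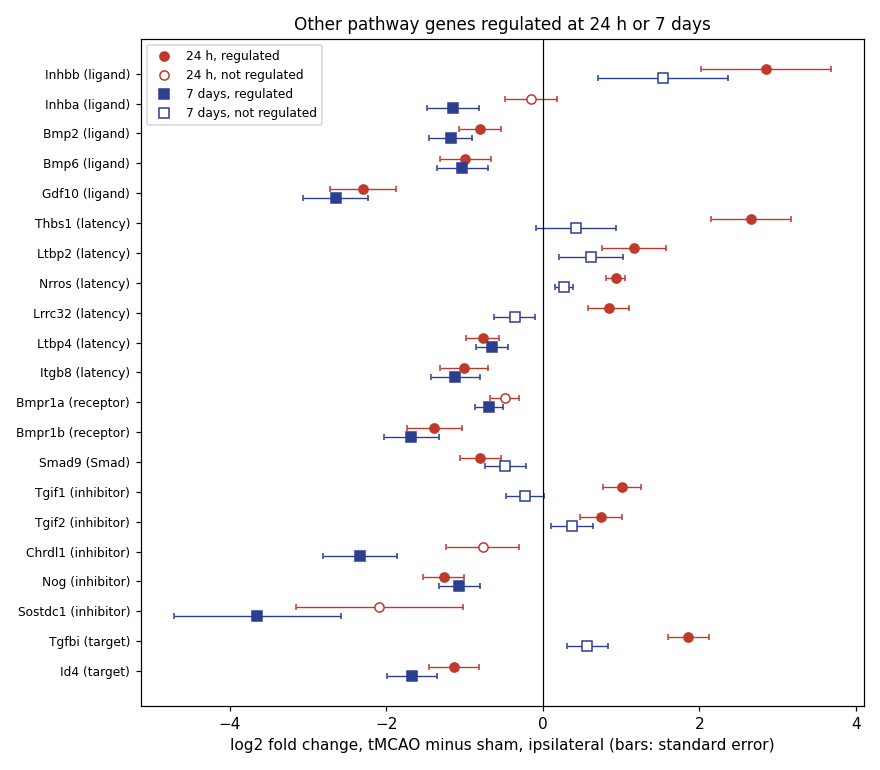
Log2 fold change of tMCAO against sham ipsilateral vessels (bars are standard errors, 3 libraries a group) for the 21 other pathway genes regulated at 24 h (circles) or 7 days (squares), filled where regulated. Thbs1 is far to the right at 24 h (2.66) and near 0 at 7 days (0.42), and Gdf10 is far to the left at both time points (-2.30 and -2.65).

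Of 8 genes of latency and activation, 4 were higher and 2 lower at 24 h, beside 18.3% of all genes regulated in either direction, and 4 of these 6 calls were lost in at least 1 fit that left out a library. Thbs1, which can activate latent TGF-beta, rose from 872 ± 688 to 4755 ± 1678 normalized counts (SD, n = 3; log2 fold change 2.66, SE 0.51, limma adjusted p = 6.8e-04). At 7 days it stood at 437 ± 206 and 622 ± 427 and was not regulated. Nrros, which tethers latent TGF-beta on myeloid cells, rose from 439 ± 29.4 to 837 ± 69 (0.93, limma adjusted p = 1.5e-05). Lrrc32, which tethers it on other cell surfaces, was higher by 0.84 and Ltbp2, a latent-TGF-beta binding protein family member, by 1.17. Itgb8, an activating integrin subunit, was lower at 24 h (-1.01) and 7 days (-1.12), and so was the binding protein gene Ltbp4 (-0.77 and -0.65). Lrrc32 lost its call in 4 of 6 fits without 1 library (lowest 0.66), Ltbp2 in 5 (0.96), and at 24 h Itgb8 in 2 and Ltbp4 in 1. At 7 days Ltbp4 lost its call in 4 of 6 such fits and Itgb8 in 1. Corrected for GC content and exon length, Ltbp4 was -0.48 at 24 h and -0.40 at 7 days and not called (limma adjusted p = 0.101 and 0.208), and Itgb8 at 24 h was -0.75 (limma adjusted p = 0.0772).

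Of 10 further ligand genes, 1 rose and 3 fell at 24 h, and 4 fell at 7 days. These were 40% of the 10 at each time point, beside 18.3% of all genes at 24 h and 13.2% at 7 days. Gdf10, a BMP family ligand, fell from 30.3 ± 5.03 to 5.33 ± 0.577 normalized counts at 24 h (-2.30, SE 0.42, limma adjusted p = 4.8e-04) and was at 35 ± 19.3 and 4.33 ± 1.53 at 7 days (-2.65, limma adjusted p = 1.7e-04). Bmp2 was lower by -0.80 at 24 h and -1.18 at 7 days (limma adjusted p = 0.00476), and Bmp6, a BMP made by endothelium, by -0.99 and -1.03. Inhbb, an activin and inhibin subunit, was higher at 24 h by 2.85 (SE 0.83), from 183 ± 151 to 1234 ± 706, and Inhba was lower at 7 days by -1.15. The 24-h calls of Bmp2 and Bmp6 were each lost in 4 of 6 fits without 1 library, and that of Inhbb in 3. They were also lost for Bmp2 (-0.65, limma adjusted p = 0.116) and Bmp6 (-0.85, limma adjusted p = 0.0954) with endothelial centring, and for both genes with only the compared groups in the fit. At 7 days Bmp6 was lost in 5 and Inhba in 3.

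Among 9 further receptors only Bmpr1b, a BMP type I receptor, was lower at 24 h, from 125 ± 36.4 to 48 ± 20.1 normalized counts (-1.39, SE 0.35, limma adjusted p = 0.00563). At 7 days Bmpr1b (-1.68, limma adjusted p = 0.00185) and Bmpr1a (-0.69) were lower, the latter not without stroke library 1 of 7 days (-0.51, limma adjusted p = 0.08). Of 6 Smads that carry the signal, Smad9 was lower at 24 h (-0.80), and none was regulated at 7 days. The call of Smad9 was lost in 3 of 6 fits without 1 library and with endothelial centring (-0.65, limma adjusted p = 0.1). At 24 h, 11.1% of the receptors and 16.7% of the Smads were regulated, beside 18.3% of all genes. At 7 days it was 22.2% of the receptors, beside 13.2% of all genes.

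Of 17 further inhibitors, 2 rose and 1 fell at 24 h, and 3 fell at 7 days, 17.6% at each time point. The share of all genes regulated was 18.3% at 24 h and 13.2% at 7 days, with 9.95% lower at 7 days. Tgif1, a corepressor of Smads, rose from 252 ± 50.3 to 511 ± 106 normalized counts at 24 h (1.01, SE 0.24, limma adjusted p = 0.00448). Its relative Tgif2 was higher by 0.74, a call lost in 5 of 6 fits without 1 library and with median centring (0.67, limma adjusted p = 0.0617). Nog, a secreted BMP antagonist, was lower at both times (-1.27 and -1.07, limma adjusted p = 0.00121 and 0.00633). At 7 days Chrdl1, another BMP antagonist, was lower by -2.34 (limma adjusted p = 0.00142). Sostdc1, an antagonist of BMP and Wnt ligands, was lower by -3.65 at 7 days, a call lost without sham library 1 (-3.50) or stroke library 1 (-3.03), with 59.7 ± 11.7 counts in sham and 4.67 ± 3.51 in stroke vessels.

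Of 6 further target genes, 1 was higher and 1 lower at 24 h, and 1 was lower at 7 days. These were 33.3% of the 6 at 24 h and 16.7% at 7 days, beside 18.3% and 13.2% of all genes. Tgfbi, a matrix protein gene induced by TGF-beta, rose from 775 ± 271 to 2726 ± 479.8 at 24 h (1.86, SE 0.26, limma adjusted p = 3.7e-05). Id4, an Id gene outside the 10, was lower at 24 h (-1.14) and 7 days (-1.67, limma adjusted p = 0.00104), opposite in sign to Id1 and Id3. The 24-h call of Id4 was lost without stroke library 3 (-0.91, limma adjusted p = 0.058).

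Other cell types moved beside these lists. At 24 h the neuron and astrocyte markers were lower in 4 of 6 each. At 7 days neuron markers were lower in 6 of 6, with sums of 3433 to 5992 in sham and 413 to 762 in stroke libraries. Astrocyte markers were lower in 3 of 6 at 7 days, with sums of 12943 to 26319 in sham and 4980 to 6590 in stroke libraries. Choroid plexus markers were lower in 4 of 6 at 7 days, with sums of 15808 to 28981 and 654 to 3121. Of 8 mural markers none was regulated at 7 days, although their sums were 126918 to 133559 in sham and 78286 to 110114 in stroke libraries. The part of these cells in the lower pathway genes was not tested.

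**Figure D4:**
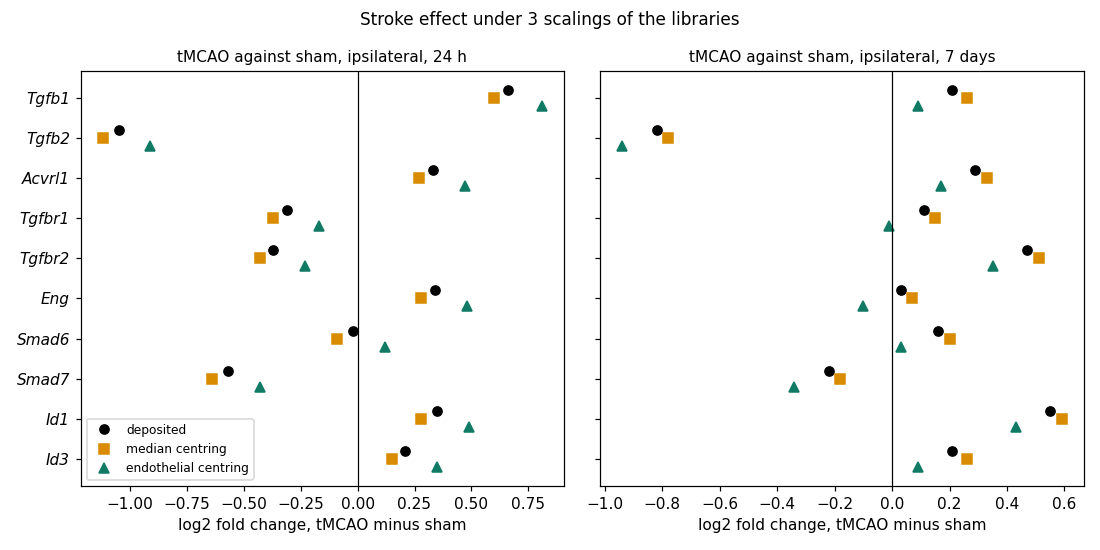
Log2 fold change of tMCAO against sham ipsilateral vessels for the 10 genes under the deposited scaling (circles), with libraries centred on the median gene (squares) and on the endothelial markers (triangles). At 24 h Tgfb1 is at 0.66 with the deposited scaling and at 0.81 with endothelial centring, and Smad6 is at -0.02 and 0.12.

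Centring the libraries on the 12 endothelial markers moved the median of all genes by over 0.1 in some comparisons, to 0.12 for stroke against sham at 24 h, -0.10 at 7 days and -0.39 between 7 days and 24 h. At 24 h Tgfb1 was then 0.81 and still the 1 gene regulated, Eng was 0.48, Acvrl1 0.47 and Smad7 -0.43. Tgfb2 was -0.91 and Tgfbr2 -0.23. Smad6 changed sign to 0.12, while the direction of the other 9 genes at 24 h was that of the deposited scaling.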

How the data were processed

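RNA of brain microvessels was sequenced after poly(A) selection with a stranded kit. Per the labels, the authors checked reads with FastQC, aligned them to mm10 with STAR 2.5.2b, counted them with featureCounts 1.5.1 and normalized them with DESeq2 1.6.2. What the authors deposited is treated as a score, namely reads per gene over a size factor of the library, rounded to whole numbers, so DESeq2 and edgeR were not run here. The strand setting and annotation release are not given in the sources used here.

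Groups came from the labels. The 10 genes and all gene lists were chosen with earlier results of these data known. With R 4.3.3 and limma 3.58.1, log2(normalized count + 1) of the 15982 genes with a mean above 5 was fitted with a mean-variance trend over all 8 groups, and 13 comparisons were tested with Benjamini-Hochberg adjustment over these genes. Named further pathway genes are those regulated at 24 h or 7 days after stroke against sham ipsilateral vessels, and genes of like pattern are the 3 with the highest Pearson correlation among genes with a mean above 50, of which at least 1 is given. A gene of the pathway list is not reported here and is left out of the counts of that list. Lengths came from GENCODE and promoters from RefSeq GRCm38.p6. Promoters were found for 7 of the 10 genes.

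Same-numbered hemispheres of a surgery and time point were taken as 1 pool of mice, from the shared numbers in the labels. The study does not state that the numbers match. Correlations of their deviations from the group means were 0.06 to 0.36 over the 6 stroke pools and 0.15 to 0.47 over the 6 sham pools. In the main fit, p-values measure the spread between the pools of a group and take both hemispheres of a pool as independent. With the pool as a block, they measure the spread of the hemisphere differences across pools.

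On simulated libraries, 65.7% of 99 genes changed by 1 and 87% of 100 changed by 2 on the log2 scale were recovered for stroke against sham ipsilateral vessels at 24 h, among 15979 genes, with 8 unchanged genes called. Only these genes were changed, whereas 18.3% of all genes were regulated in the data. The adjustment thus worked at an unlike threshold, and these shares are not the recovery in the data. Alternatives were a pseudocount of 0.5, no filter, a minimum mean of 20, median and endothelial centring of the libraries, no limit on the fold change, only the compared groups in the fit, replicate blocks, each library left out in turn and, added after the data were seen, a correction for length and GC content with splines of 5 degrees of freedom. Python 3.11.15, pandas 2.3.3 and matplotlib 3.10.9 handled tables and plots.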

Additional observations from a re-analysis of the deposited data

Results flagged for a closer look

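Among the further pathway genes, 5 had stroke effects that differed between 7 days and 24 h in ipsilateral vessels by the test of that difference itself, the limma contrast of the 7-day and 24-h effects. They were 8.93% of the 56 genes, near the 8.12% of all genes, and were chosen after their values were seen. Atoh8, a target of the endothelial BMP branch, was 0.89 higher on the log2 scale in its 7-day effect than in its 24-h effect (SE 0.17, limma adjusted p = 0.00266). Its sham and stroke libraries held 480, 540 and 540 against 381, 406 and 428 normalized counts at 24 h and 469, 446 and 340 against 589, 585 and 620 at 7 days. The stroke libraries were thus below sham at 24 h and above sham at 7 days, and the call was kept in all 12 fits without 1 library. The 24-h and 7-day effects alone, -0.36 and 0.53, passed the p threshold (limma adjusted p = 0.0296 and 0.00418) but not the fold limit. Corrected for GC content and exon length, the 7-day effect was 0.63 and called. In other alternatives these single effects missed the p threshold. The limma adjusted p reached 0.297 for the 24-h effect and 0.1 for the 7-day effect.

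The other 4 differed in the opposite direction. Tgfbi differed by -1.30 (limma adjusted p = 0.0296), Tgif1 by -1.25 (limma adjusted p = 0.0270), Lrrc32 by -1.20 (limma adjusted p = 0.0434) and Nrros by -0.66 (limma adjusted p = 0.0166). Leaving out 1 library ended the call in 7 of 12 fits for Tgfbi, 5 for Tgif1, 9 for Lrrc32 and 1 for Nrros, the last without stroke library 1 of 24 h (-0.60, limma adjusted p = 0.0545). Median centring ended the calls of Lrrc32 and Nrros (-1.10 and -0.56, limma adjusted p = 0.0562 for both).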

How the results depend on the processing

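The number of the 10 genes regulated changed as follows. With median centring it was 2 at 24 h (Smad7 and Tgfb1), 1 at 7 days (Id1) and 1 for the difference between the stroke effects (Tgfbr2). With endothelial centring it was 1 between hemispheres of stroke mice at 24 h (Tgfb1), 2 between 7 days and 24 h in the stroke hemisphere (Eng and Tgfb1, both lower at 7 days) and 1 for the difference between the effects (Tgfb1, -0.71). With no limit on the fold change it was 3 at 24 h (Eng, Smad7 and Tgfb1), 1 at 7 days (Id1) and 2 between hemispheres of stroke mice at 24 h (Tgfb1 and Tgfbr1). With only the compared groups in the fit it was 2 at 24 h (Tgfb1 and Tgfb2). With the replicate block by pool it was 1 between hemispheres of stroke mice at 24 h (Tgfb2). The replicate number as a block, where the numbers pair no animals, gave 0 between 7 days and 24 h in the stroke hemisphere (Tgfbr2, limma adjusted p = 0.05) and, within time points, 1 for the difference between the effects (Tgfbr2, limma adjusted p = 0.0249). Neither block changed any other count. Leaving out 1 library gave 1 to 2 at 24 h, 0 to 1 at 7 days, 0 to 1 between hemispheres of stroke mice at 24 h and at 7 days, 0 to 1 between 7 days and 24 h and 0 to 1 for the difference between the effects, where Tgfbr2 was called without sham library 3 or stroke library 2 of 7 days (1.01 and 1.0). Among the further pathway genes, Ltbp4 at 7 days was also lost with median centring (-0.61) and with only the compared groups in the fit, and Tgif2 at 24 h with the latter. Signs of single genes were followed only in stroke against sham ipsilateral vessels, between hemispheres of stroke mice and over time. The comparisons over time were those of the stroke hemisphere and of the stroke effects. Further pathway genes were followed only in the stroke effects and their difference. There, no difference with an unadjusted limma p under 0.05 or a call in any setting changed sign. Of 62 other single-gene results, 35 changed sign under at least 1 alternative. Differences under 1 on the log2 scale were not simulated, so the share of such differences that 3 libraries a group would recover is unknown.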
